A study of Mus musculus with 8 samples.

Results

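CXC chemokines are small secreted proteins that guide leukocytes, and the 9 listed here were followed in the BV-2 line, mouse microglia made immortal by a retrovirus that serve as a model of the brain's macrophages, after exposure to bacterial lipopolysaccharide (LPS) and a fungal extract. They comprise 4 neutrophil attractants (Cxcl1, Cxcl2, Cxcl3 and Cxcl5), 3 interferon-induced T cell attractants (Cxcl9, Cxcl10 and Cxcl11), and Cxcl14 and Cxcl16. Members were found by matching the transcript each probe was designed on to a gene symbol. This gave 9 probes for 8 of the 9 genes, out of 55681 probes and 21154 named genes. No probe matched Cxcl11, which the RefSeq table lists as a transcribed pseudogene, and it was not analysed here. Of the 8 genes with a probe, 5 (Cxcl2, Cxcl9, Cxcl10, Cxcl14 and Cxcl16) had at least 1 group in which both arrays were well above background, and were tested among 22460 genes.

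Flasks of BV-2 cells were kept for 24 h with both agents (LPS+HF), with 1 µg/mL of LPS alone (LPS), with 100 µg/mL of the hexane fraction of Amauroderma rugosum, a mushroom, alone (HF), or with neither (control). Each group had 2 single-colour arrays, 8 in all. The design text describes duplicates that are biological without saying whether each came from its own culture, so p-values measure only the spread between these arrays, which may be technical. An immortalised line in culture holds no neutrophils or T cells for these ligands to attract, and only messenger RNA was measured.

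Neutrophil-attracting CXC ligands act mainly through the receptor Cxcr2, and their genes are switched on by NF-kB, a factor activated when LPS binds Toll-like receptor 4. Cxcl9, Cxcl10 and Cxcl11 bind Cxcr3 on activated T cells and are induced by interferons, with NF-kB contributing to Cxcl10. In the brain, microglia and astrocytes are known sources of both kinds during infection and injury.

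The neutrophil and T cell attractants sit in 2 blocks of mouse chromosome 5 (GRCm38.p6). Cxcl5 (positions 90759298 to 90761625), Cxcl3 (90786101 to 90788093), Cxcl1 (90891245 to 90893121) and Cxcl2 (90903899 to 90905938) lie in the first. Cxcl9 (92321331 to 92328079), Cxcl10 (92346638 to 92348889) and Cxcl11 (92359544 to 92363296) lie in the second. Cxcl16 is on chromosome 11 (70454389 to 70459984) and Cxcl14 on chromosome 13 (56288643 to 56296811). The 250 bases before the start of 4 of these genes are shown because the neighbours Cxcl1 and Cxcl2, and likewise Cxcl9 and Cxcl10, differed in the arrays on which they were above background. They come from RefSeq (GRCm38.p6) and read 5′ to 3′ on the gene's strand. Capitals mark matches on either strand to an NF-kB-like motif (GGG, any 3 bases, TTCC) or to the core of the interferon-stimulated response element (GAAA, any 2 bases, GAAA). Cxcl1 is at chr5:90890995-90891244 (plus strand), Cxcl2 at chr5:90903649-90903898 (plus strand), Cxcl9 at chr5:92328080-92328329 (minus strand) and Cxcl10 at chr5:92348890-92349139 (minus strand).
Cxcl1: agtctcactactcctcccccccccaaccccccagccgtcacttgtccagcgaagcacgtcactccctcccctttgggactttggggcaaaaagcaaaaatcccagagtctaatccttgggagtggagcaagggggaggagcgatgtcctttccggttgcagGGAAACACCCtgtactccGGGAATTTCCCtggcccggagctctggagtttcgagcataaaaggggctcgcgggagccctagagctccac
Cxcl2: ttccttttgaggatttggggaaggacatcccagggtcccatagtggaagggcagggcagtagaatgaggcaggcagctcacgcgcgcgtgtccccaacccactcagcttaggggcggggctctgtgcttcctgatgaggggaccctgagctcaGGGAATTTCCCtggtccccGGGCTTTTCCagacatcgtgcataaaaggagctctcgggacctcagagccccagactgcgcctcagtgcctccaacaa
Cxcl9: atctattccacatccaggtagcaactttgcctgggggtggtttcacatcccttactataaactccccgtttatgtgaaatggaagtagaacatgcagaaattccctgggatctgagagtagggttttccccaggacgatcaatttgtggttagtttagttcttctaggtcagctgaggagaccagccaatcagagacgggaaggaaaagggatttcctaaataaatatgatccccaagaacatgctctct
Cxcl10: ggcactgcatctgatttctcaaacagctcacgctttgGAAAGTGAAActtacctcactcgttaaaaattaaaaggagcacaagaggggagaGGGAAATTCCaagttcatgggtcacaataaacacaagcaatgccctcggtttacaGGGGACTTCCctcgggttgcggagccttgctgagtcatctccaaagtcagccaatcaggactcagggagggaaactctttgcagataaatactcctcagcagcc

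RefSeq promoters were at hand for 6 members (Cxcl1, Cxcl2, Cxcl3, Cxcl9, Cxcl10 and Cxcl14). Cxcl2 held the NF-kB-like stretches GGGAATTTCCC and GGGCTTTTCC, whose first bases lay at -97 and -78 from the start. Cxcl1 held GGAAACACCC at -89 and GGGAATTTCCC at -71, and Cxcl3 held GGGAATTTCCC at -73 and GGGCTCTTCC at -50. The stretch GGGAATTTCCC matches on both strands, in overlap, and was shared by the 3 neutrophil attractants with a promoter entry. Cxcl10 held NF-kB-like stretches at -159 and -104 and the interferon response core GAAAGTGAAA at -213. None of the 3 motifs searched was in the Cxcl9 window, the third being the interferon-gamma activated sequence (TTC, any 3 bases, GAA). The Cxcl14 window (chr13:56296552-56296801, minus strand) lies inside the gene span given above, before a start within that span. It held the response core at -172 and TTCTGAGAA, a match to the third motif, at -191. Of 32851 promoter windows in the table, 4.65% held the NF-kB-like motif, 2.98% the response core and 7.02% the third motif. A match is a description of the letters and not a shown binding site.

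All signals below are log2 values of the scanner's processed signal relative to the 75th percentile of the same array, so 0 is the level of a fairly bright probe. Levels of different probes cannot be set against each other. Precision is limited throughout by how few arrays there are. In bulk RNA, fewer cells of a type and less RNA per cell cannot be told apart.

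Some arrays stood apart. Repeated probes on control replicate 1 had a coefficient of variation of 48.9%, where the other 7 arrays had 3.77% to 8.06%. On control replicate 1 the local brightness, read before the trend correction, was dimmed over 4-fold at 13.4% of its spots. The scanner software marked that array and HF replicate 1 for evaluation. The SD over genes of the difference between the 2 replicates was 0.34 log2 for LPS+HF, 0.28 for LPS, 0.52 for HF and 0.99 for control, and the fit pools these into 1 spread per gene. The arrays with HF shared a row of the slide and those without HF the other row, and LPS went likewise with slide columns, so treatment and position cannot be told apart. All 11 microglia and macrophage markers listed were measured, 9 of them on all 8 arrays. Their summed linear level, in which the brightest probes weigh most, was 513 to 577 in LPS+HF, 669 to 693 in LPS, 509 to 543 in HF and 759 to 788 in control. In LPS+HF minus LPS 1 of the 11 rose and 2 fell, beside 2.89% of all genes higher and 3.25% lower. Cx3cr1 rose (log2 1.76 ± 0.14, limma adjusted p = 0.00872). P2ry12 (-1.32 ± 0.21, limma adjusted p = 0.0262) and Ptprc (-0.83 ± 0.14, limma adjusted p = 0.0279) fell. Cx3cr1 was not well above background in LPS, nor P2ry12 in LPS+HF. Of 5 neutrophil markers 4 had a probe and 2 were measured, with S100a9 above background on no array. Their summed level was 6.03 to 7.27 in LPS+HF, 7.09 to 8.68 in LPS, 6.68 to 7.74 in HF and 6.32 to 6.49 in control. S100a8, a neutrophil marker, fell in LPS+HF minus LPS (log2 -1.19 ± 0.24, limma adjusted p = 0.0442). All 4 T cell markers were measured, summing to 10.46 to 12.18 in LPS+HF, 11.04 to 11.83 in LPS, 10.89 to 13.53 in HF and 11.68 to 27.48 in control. The sum of 27.48 was on control replicate 1 and came mostly from Cd4 at a locally dimmed spot (log2 4.50, beside 2.62 on control replicate 2). The part of these shifts in the results below was not tested.

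**Figure D1:**
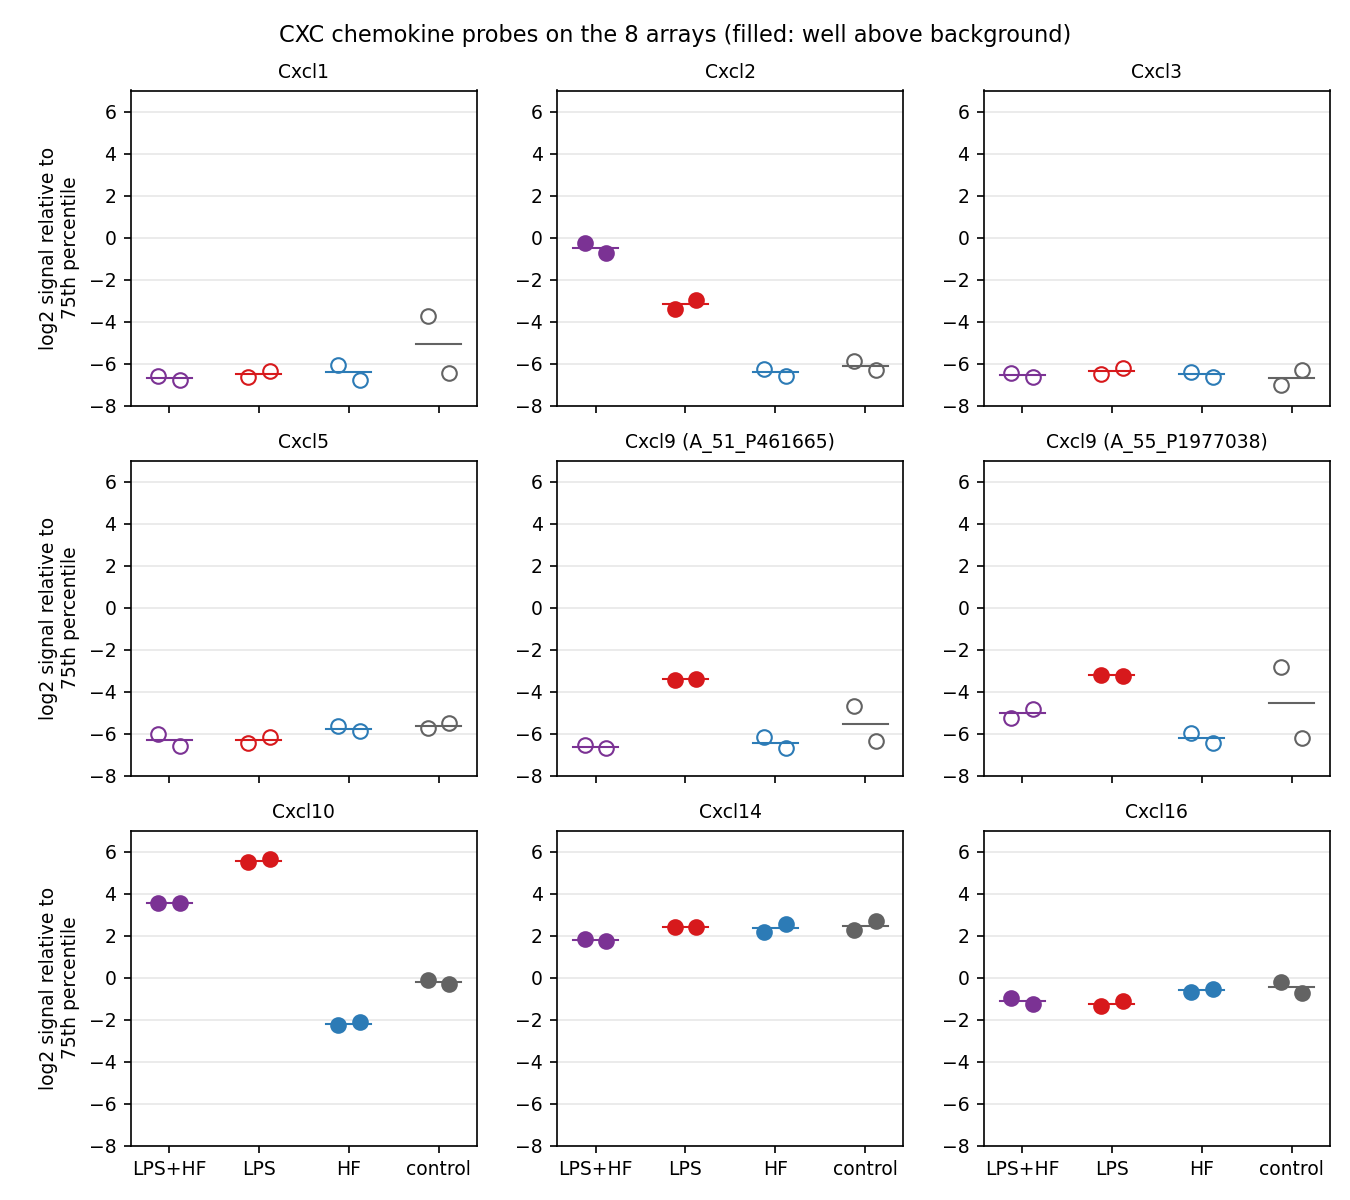
Log2 signal relative to the array's 75th percentile (vertical axis) of each of the 9 probes in LPS+HF, LPS, HF and control (horizontal axis). Each point is an array, filled where the probe was well above background, and the bars are the means of 2 arrays. The Cxcl2 points are highest in LPS+HF (-0.26 and -0.73), while the Cxcl10 points are highest in LPS (5.49 and 5.66), and Cxcl1, Cxcl3 and Cxcl5 have open points on all arrays.

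Among the neutrophil attractants, Cxcl2 was the one with a measured signal. Cxcl2, a macrophage product that recruits neutrophils, had log2 signals of -0.26 and -0.73 in LPS+HF, -3.38 and -2.99 in LPS, -6.25 and -6.58 in HF, and -5.89 and -6.30 in control. Both LPS+HF arrays lay above both LPS arrays, and these lay above all arrays without LPS, on which the probe was not well above background. The HF and control arrays overlapped. Cxcl1, a close relative that shares the receptor, was above background on 0 of 8 arrays, with log2 values of -6.62 and -6.76 in LPS+HF, -6.64 and -6.34 in LPS, -6.09 and -6.76 in HF, and -3.73 and -6.45 in control. The one higher value, on control replicate 1, was at a spot where that array's signal was locally dimmed, and it was not well above background. Cxcl3, the third member of the same cluster, ranged over the 8 arrays from -7.02 to -6.20, and Cxcl5, best known from epithelial cells, from -6.61 to -5.51. Neither was above background on any array. With 24 h of LPS, with or without HF, no signal of Cxcl1, Cxcl3 or Cxcl5 was detectable by these probes.

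The T cell attractants ordered the groups differently. Cxcl10, the interferon-induced ligand of Cxcr3, had log2 signals of 3.56 and 3.54 in LPS+HF, 5.49 and 5.66 in LPS, -2.26 and -2.13 in HF, and -0.11 and -0.31 in control. It was above background on all 8 arrays and no 2 groups overlapped: LPS was highest, then LPS+HF, control and HF. Cxcl9, the ligand of the same receptor that depends most on interferon gamma, had 2 probes, both above background on the LPS arrays alone. With the brighter probe (A_55_P1977038), which stands for the gene in the fit, it had -5.24 and -4.84 in LPS+HF, -3.20 and -3.24 in LPS, -5.98 and -6.45 in HF, and -2.82 and -6.23 in control. Both LPS arrays lay above both LPS+HF arrays, and the value of -2.82 stood at a locally dimmed spot of control replicate 1. With the other probe (A_51_P461665) it had -6.55 and -6.70 in LPS+HF, -3.43 and -3.41 in LPS, -6.17 and -6.71 in HF, and -4.68 and -6.37 in control. By this probe the LPS arrays lay above the other 6.

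The remaining members differed less between groups. Cxcl14, a chemokine made constitutively by many tissues, had 1.86 and 1.73 in LPS+HF, 2.40 and 2.39 in LPS, 2.15 and 2.55 in HF, and 2.26 and 2.70 in control. Its LPS+HF arrays were lowest and the other 3 groups overlapped. Cxcl16, made as a membrane-bound ligand of Cxcr6, had -0.98 and -1.23 in LPS+HF, -1.34 and -1.13 in LPS, -0.69 and -0.54 in HF, and -0.20 and -0.72 in control. Its arrays with LPS all lay below its arrays without LPS, while adding HF left the groups overlapping in both settings.

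The question of the series, what HF does to cells exposed to LPS, is addressed by LPS+HF minus LPS. Cxcl2 rose 6.46-fold with HF and Cxcl10 fell 4.08-fold, so the measured neutrophil attractant and the brightly measured T cell attractant went in opposite directions. For Cxcl2 the log2 difference was 2.69 ± 0.26 (SE, 2 arrays per group; limma adjusted p = 0.0111). With the normexp background correction it was 1.44 (adjusted p = 0.0239). For Cxcl10 the log2 difference was -2.03 ± 0.15 (limma adjusted p = 0.00805). Of the 5 members tested, 1 was called higher and 1 lower, where 6.14% of all genes tested were called, 2.89% higher and 3.25% lower. Cxcl9 had a log2 difference of -1.82 ± 1.01 by the probe used (limma adjusted p = 0.339), in a fit whose spread includes the dimmed control spot. By its other probe Cxcl9 fell by 3.21 ± 0.53 on the log2 scale (limma adjusted p = 0.029), at least 2.33-fold. Both Cxcl9 probes were kept only through the LPS arrays, so the filter itself favoured a fall and this p lends it no support. The folds given as "at least" are taken against the dimmest signals that counted as above background on the arrays of the dimmer group. Some brighter probes did not count: on control replicate 1 that signal was -4.93, and Cxcl1 at -3.73 was not well above background. These folds are therefore no strict minimum. Cxcl14 had -0.60 ± 0.21 (limma adjusted p = 0.16) and Cxcl16 0.12 ± 0.22 (limma adjusted p = 0.799), with a 95% interval for Cxcl16 of -0.42 to 0.66. Over all 22460 genes the median log2 difference was -0.07.

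Both of those calls need all 4 arrays of the comparison. Both were lost without either LPS array, or either LPS+HF array, with log2 differences of 2.46 to 2.92 for Cxcl2 and -2.11 to -1.94 for Cxcl10. Far fewer of all genes were called in those fits too, so the losses are not particular to these members. Without either control array, calls of Cxcl9 (-1.82) and Cxcl14 (-0.60) were gained at unchanged log2 differences. The controls enter this comparison only through the pooled spread, and far more of all genes were called there as well. These gains are thus not particular to the members.

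Without LPS, HF minus control gave 1 member called lower and 0 higher of the 5 tested, beside 0.89% of all genes, 0.748% lower and 0.142% higher. Cxcl10 fell 3.96-fold (log2 -1.99 ± 0.15, limma adjusted p = 0.0117). That fall had almost the size of the fall in cells with LPS. The call was lost under median scaling, with normexp background correction, without the filter on dim probes, with only the arrays compared, and without any 1 of the arrays other than the controls, where the log2 difference was -2.05 to -1.60. Cxcl2 and Cxcl9 were not well above background in HF or control, so no fold can be given for them. Cxcl14 had a log2 difference of -0.13 ± 0.21 (limma adjusted p = 0.734) and Cxcl16 one of -0.15 ± 0.22 (limma adjusted p = 0.695).

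**Figure D2:**
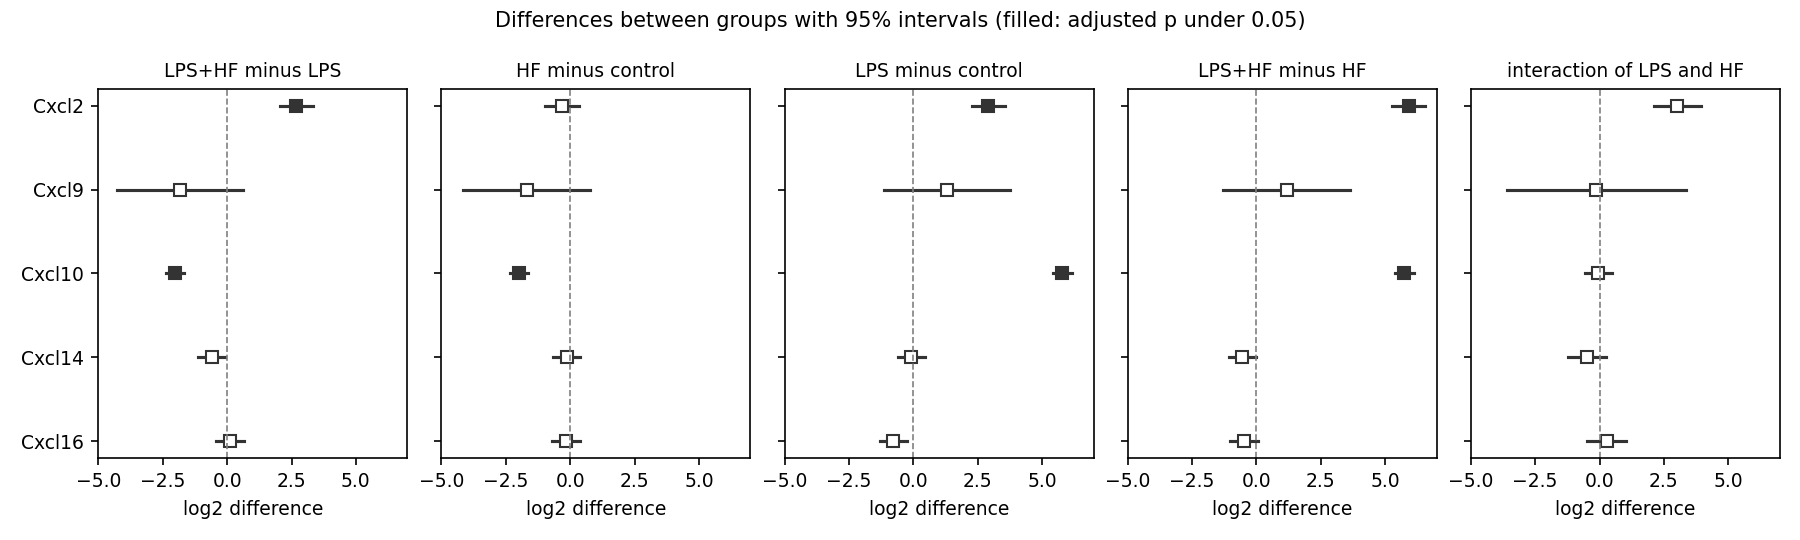
Log2 differences (horizontal axis) of the 5 tested members (rows) in each comparison, with 95% intervals from the fit over 8 arrays, filled where the adjusted p was under 0.05. With LPS+HF minus LPS the Cxcl2 point is at 2.69 and the Cxcl10 point at -2.03. The Cxcl9 intervals are the widest of the 5 and cross 0 in every panel.

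LPS alone raised Cxcl2 and Cxcl10. In LPS minus control 2 of the 5 members tested were called higher and 0 lower, beside 11.1% of all genes, 4.77% higher and 6.3% lower. Cxcl2 and Cxcl9 were kept only through arrays with LPS, and Cxcl1, Cxcl3 and Cxcl5 were not tested. The filter thus favoured rises with LPS, and the count describes the members without testing them as a set. Cxcl10 rose 55.2-fold (log2 5.79 ± 0.15, limma adjusted p = 0.000126), with a log2 difference of 5.10 under the normexp background correction. Cxcl2 rose at least 2.54-fold (log2 1.35) against the dimmest signals that counted as above background on the control arrays. Its log2 difference of measured signals was 2.91 ± 0.26 (limma adjusted p = 0.00378). Without LPS replicate 2 its adjusted p was 0.0508, and with the normexp background correction its log2 difference was 0.69 (adjusted p = 0.0713). That normexp difference is below the log2 of 1.35 behind the 2.54-fold. With only the arrays compared the adjusted p of Cxcl2 was 0.075. Cxcl9 had a log2 difference of 1.31 ± 1.01 (limma adjusted p = 0.407), or 2.11 ± 0.53 by its other probe (limma adjusted p = 0.0583). Without control replicate 1, at whose dimmed spot the probe used lay, the Cxcl9 difference was 3.01. Cxcl16 had -0.77 ± 0.22 (limma adjusted p = 0.0799), and -1.03 without control replicate 2. Cxcl14 had -0.08 ± 0.21 (limma adjusted p = 0.812).

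In cells with HF, LPS also raised Cxcl2 and Cxcl10. LPS+HF minus HF called 2 of the 5 higher and 0 lower, beside 1.28% of all genes, 0.904% higher and 0.374% lower. Here too Cxcl2 was kept only through arrays with LPS, which favoured a rise. Cxcl2 rose at least 14.0-fold (log2 of measured signals 5.92 ± 0.26, limma adjusted p = 0.000735). Cxcl10 rose 53.7-fold (log2 5.75 ± 0.15, limma adjusted p = 0.000208). With the normexp background correction the log2 differences were 2.13 for Cxcl2 (adjusted p = 0.00783), which is below that bound, and 4.70 for Cxcl10 (adjusted p = 0.00391). Cxcl9 was not well above background in either group by either probe, so no fold can be given for it. The log2 difference was -0.56 ± 0.21 for Cxcl14 (limma adjusted p = 0.488) and -0.50 ± 0.22 for Cxcl16 (limma adjusted p = 0.597).

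The interaction of LPS and HF asks whether the LPS response differed with HF. By limma 0 of the 5 members passed, beside 0.0534% of all genes (0.0134% higher and 0.0401% lower), and 1 of the 5 had an unadjusted p under 0.05. For Cxcl2 the LPS response was 3.01 ± 0.37 log2 larger with HF (95% interval 2.10 to 3.92), and this missed the threshold (limma adjusted p = 0.095). It passed after the spatial correction (2.85, limma adjusted p = 0.0211), but there 751 of all genes passed, beside 12 in the main fit. Without control replicate 2 the estimate was 3.22, with the uneven control replicate 1 as the only control. The Cxcl2 estimate uses measured signals of HF and control arrays that were not well above background. For Cxcl10 the LPS response differed by -0.04 ± 0.21 log2 (95% interval -0.55 to 0.47, limma adjusted p = 0.937), so HF shifted it by nearly the same log2 amount with and without LPS. For Cxcl9, above background in LPS alone, the interaction was -0.13 ± 1.42 by the probe used (limma adjusted p = 0.973) and -2.30 ± 0.74 by the other (limma adjusted p = 0.346). Without control replicate 2 it was 1.58, resting on the dimmed control spot. It was -0.47 ± 0.30 for Cxcl14 (limma adjusted p = 0.595) and 0.27 ± 0.31 for Cxcl16 (limma adjusted p = 0.726).

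**Figure D3:**
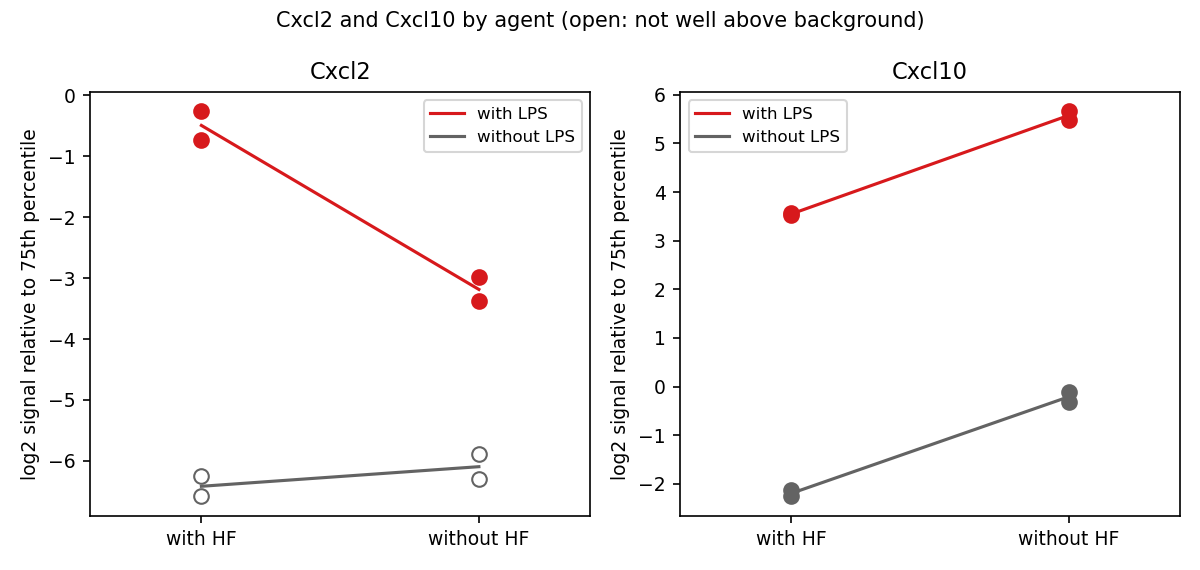
Log2 signal relative to the array's 75th percentile (vertical axis) of Cxcl2 and Cxcl10 with and without HF (horizontal axis). Points are arrays, open where the probe was not well above background, and lines join group means with LPS (red) and without LPS (grey). The Cxcl10 lines run nearly parallel (interaction -0.04), and the Cxcl2 lines do not (interaction 3.01, which missed the threshold).

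Across the 8 arrays the Pearson r between Cxcl2 and Cxcl10 was 0.782. Among 1039 other tested genes that varied by an SD of at least 1 log2, the 5 most like Cxcl2 were Icosl, a costimulatory ligand (r = 0.986), Tnf, tumour necrosis factor (0.984), Gpr84, a fatty acid receptor (0.978), Myc, a transcription factor (0.974), and Il1f9, an interleukin-1 family cytokine (0.969). Tnf had log2 signals of 4.32 and 4.33 in LPS+HF, 3.15 and 3.05 in LPS, 0.44 and 0.45 in HF, and 0.43 and 0.44 in control. Like Cxcl2, it was highest in LPS+HF. The 5 most like Cxcl10 were Tnfsf15, a tumour necrosis factor relative (r = 0.999), Pdlim4, an actin-associated protein (0.994), Pilrb2, an immunoglobulin-like receptor (0.993), Cd14, the LPS co-receptor (0.992), and Ccl5, a CC chemokine (0.992). Ccl5 had log2 signals of 5.48 and 4.63 in LPS+HF, 8.08 and 8.20 in LPS, -0.38 and -0.18 in HF, and 1.56 and 1.59 in control. Its order of groups was that of Cxcl10. Genes were picked by likeness over the same 8 arrays, so their r values and their order of groups describe the choice and support nothing.

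Other ligands of the family were mostly not detected. Of the 6 listed, Pf4, platelet factor 4, was measured, and Ppbp, Cxcl12, Cxcl13, Cxcl15 and Cxcl17 were above background on 0 arrays. Pf4, which lies between Cxcl5 and Cxcl3, had log2 signals of 5.54 and 5.33 in LPS+HF, 4.83 and 4.92 in LPS, 5.77 and 5.75 in HF, and 5.89 and 5.60 in control. It fell in LPS minus control (log2 -0.87 ± 0.16, limma adjusted p = 0.0261). It had 0.56 ± 0.16 in LPS+HF minus LPS (limma adjusted p = 0.104).

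Of 8 CXC receptors 6 were measured. By limma 0 passed in LPS+HF minus LPS (2 had an unadjusted p under 0.05), where 6.14% of all genes were called. The median log2 difference of the receptors was 0.13. Cxcr4, the Cxcl12 receptor, had 0.39 ± 0.19 (limma adjusted p = 0.284) and Cxcr1, a relative of Cxcr2, had -0.95 ± 0.45 (limma adjusted p = 0.263). In LPS minus control 1 receptor of the 6 rose and 2 fell, beside 4.77% of all genes higher and 6.3% lower. Cxcr1, whose spot on control replicate 1 was locally dimmed, rose (log2 3.87 ± 0.45, limma adjusted p = 0.00695), and Cxcr4 fell (-1.44 ± 0.19, limma adjusted p = 0.0101). Cxcr2 and Cxcr3 were added here after their values were seen, as the receptors of the compared ligands. Cxcr2 had -3.05 and -4.13 in LPS+HF, -3.38 and -4.01 in LPS, -2.16 and -1.96 in HF, and -1.26 and -1.47 in control, and fell in LPS minus control (-2.33 ± 0.39, limma adjusted p = 0.0192). Cxcr3 had -0.12 and -0.09 in LPS+HF, -2.25 and -3.43 in LPS, -0.64 and -0.53 in HF, and -3.54 and -1.53 in control. Its arrays with HF lay above its arrays without, but LPS+HF minus LPS did not pass (2.74 ± 0.68, limma adjusted p = 0.074).

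Of 19 listed genes of interferon signalling, which act upstream of Cxcl9 and Cxcl10, 17 were measured. Comparing LPS+HF with LPS, 1 fell, 0 rose and 16 did not pass, where 6.14% of all genes were called, and the median was -0.25. The gene that fell was Irf7, an interferon-induced regulator of interferon genes (log2 -2.85 ± 0.37, limma adjusted p = 0.0173). Irf7 had 1.85 and 1.49 in LPS+HF, 4.52 and 4.52 in LPS, -0.18 and -0.17 in HF, and 0.78 and 1.95 in control. Its LPS+HF arrays lay below its LPS arrays. The control value of 0.78 stood at a locally dimmed spot of control replicate 1. In LPS minus control 3 of the 17 rose, Irf7 among them (3.15 ± 0.37, limma adjusted p = 0.00739), and 1 fell, beside 4.77% of all genes higher and 6.3% lower, with a median of 0.82. Ifnb1, interferon beta itself, was above background on 1 array and was not tested.

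Of 18 listed genes of NF-kB signalling and messenger decay, which act on Cxcl1, Cxcl2 and Cxcl3, 17 were measured. In LPS+HF minus LPS 1 rose, 0 fell and 16 did not pass, again beside 6.14% of all genes called, with a median of 0.16. The gene that rose was Nfkbia, which encodes an NF-kB inhibitor that is itself an NF-kB target (log2 1.22 ± 0.14, limma adjusted p = 0.0128). Nfkbia had 7.09 and 6.95 in LPS+HF, 5.72 and 5.88 in LPS, 4.20 and 4.27 in HF, and 3.22 and 3.25 in control. No groups overlapped, and LPS+HF was highest, as for Cxcl2. Nfkbia was also the 1 gene of the list that rose in HF minus control (1.01 ± 0.14, limma adjusted p = 0.044), beside 0.142% of all genes. In LPS minus control 8 of the 17 rose and 0 fell, with a median of 1.30, where 4.77% of all genes rose. In LPS+HF minus HF 7 rose and 0 fell, with a median of 0.84, where 0.904% of all genes rose.

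**Figure D4:**
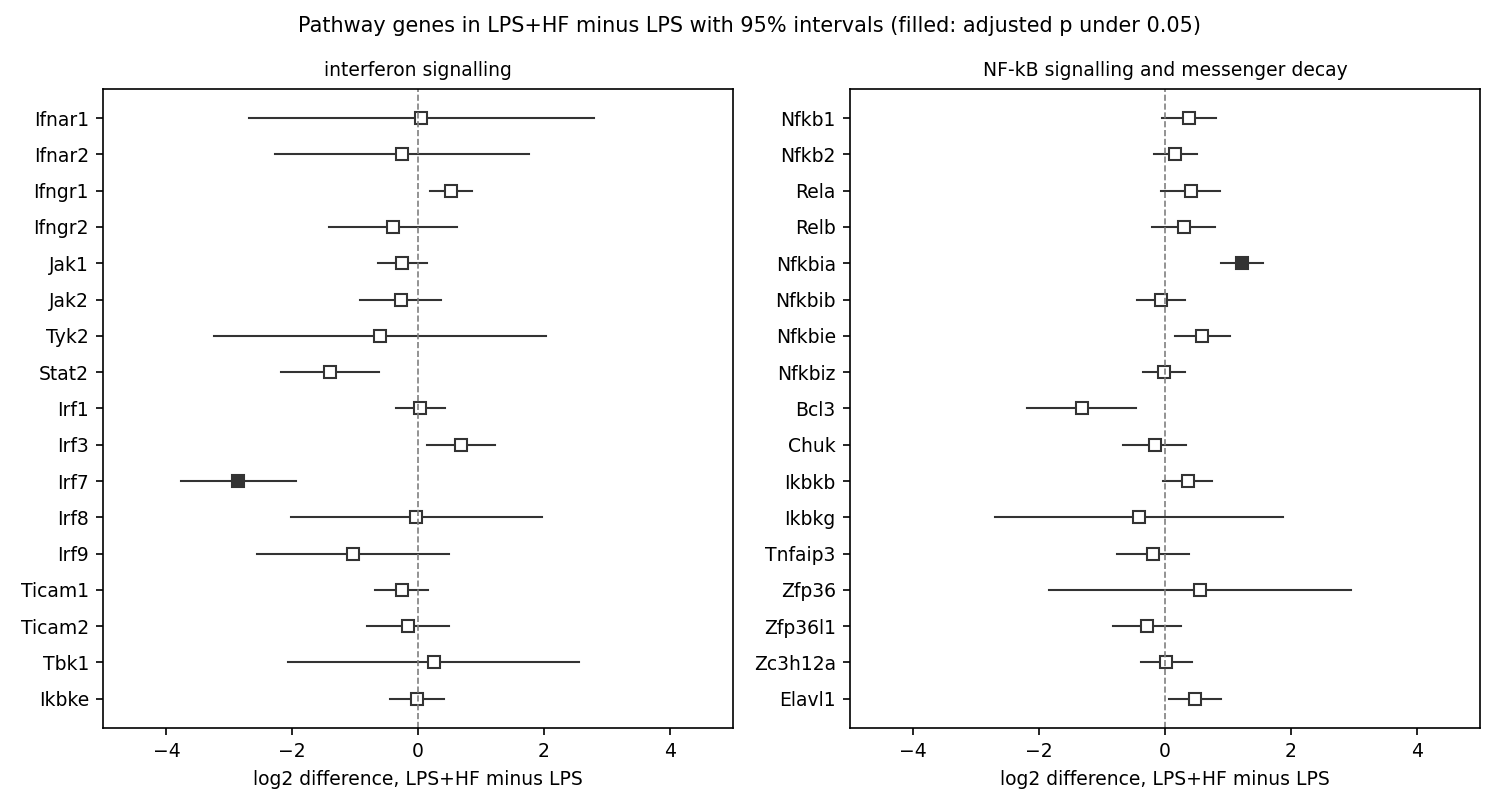
Log2 differences in LPS+HF minus LPS (horizontal axis) with 95% intervals of the 17 measured genes of interferon signalling and the 17 of NF-kB signalling and messenger decay (rows), filled where the adjusted p was under 0.05. Irf7 (-2.85) and Nfkbia (1.22) are the filled points.

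Of 6 proteases known to trim or shed chemokines 3 were measured. By limma 0 passed in LPS+HF minus LPS (1 had an unadjusted p under 0.05), where 6.14% of all genes were called. The median of the 3 was 0.38. Adam10, which sheds Cxcl16 from the cell surface, had 0.38 ± 0.15 (limma adjusted p = 0.193), and Adam17, a related sheddase, had 0.26 ± 0.31 (limma adjusted p = 0.684).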

How the data were processed

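Messenger RNA of BV-2 cells was measured on 8 single-colour Agilent arrays. Per the file headers, the intensity of each spot was made by Feature Extraction 11.5.1.1, with background subtraction and a correction of trends over the array. The deposited log2 matrix was made by the authors from these signals. Recomputing it as log2 signal minus the array's 75th percentile, with the median of each probe then removed, gave nearly all values to within 0.00399.

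Here the processed signals were converted to log2 and shifted to the 75th percentile. Probes were kept where some group had both arrays well above background, and the brightest probe stood for each gene (22460 genes). Of 55681 probes 50.3% had a RefSeq symbol. Group means were fitted with limma 3.58.1 (R 4.3.3) over all 8 arrays, two-sided, with Benjamini-Hochberg adjustment over all genes and a threshold of 0.05. Values by the other Cxcl9 probe came from a separate fit of all 30344 kept probes, adjusted over probes. The fit was tested on simulated data. Members and lists were chosen with earlier results of these data known. The text names all members, and from each list up to 4 genes that passed in LPS+HF minus LPS, or the 2 brightest where none passed. Scripts used Python 3.11.15, numpy 2.4.6, pandas 2.3.3 and matplotlib 3.10.9. The alternatives were other background corrections, scalings, filters, probes, variance models and sets of arrays. The spatial correction among them subtracted local deviations over windows 31 rows by 15 columns wide and masked spots dimmed over 4-fold.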

Additional observations from a re-analysis of the deposited data

How the results depend on the processing

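Of 7 single results that passed (Cxcl2 and Cxcl10), 0 changed direction in 137 refits, and 116 refits kept the call. The number of members called was 2 in LPS minus control, but 1 with normexp background correction, 1 with probes above background on all arrays and 1 with only the arrays compared (1 to 3 leaving out each array). It was 3 after the spatial correction and without control replicate 1 and HF replicate 1 together. In HF minus control it was 1, but 0 by limma with normexp (2 at an unadjusted p under 0.05), and 0 with median scaling, no filter on dim probes or only the arrays compared (1 each at an unadjusted p under 0.05), and 0 to 2 leaving out each array. In LPS+HF minus LPS it was 2, but 1 with probes above background on all arrays, and 4 with only the arrays compared, without control replicate 1 and HF replicate 1 together, or after the spatial correction (0 to 4 leaving out each array). In LPS+HF minus HF it was 2, but 1 with probes above background on all arrays and 3 after the spatial correction (2 leaving out each array). In the interaction it was 0, but 1 after the spatial correction (0 to 2 leaving out each array). The cause of these shifts was not tested, except that Cxcl2 and Cxcl9 cannot pass where all arrays must be above background. With the replicate number as a block the counts were 2, 1, 2, 2 and 0. Deviations of same-numbered arrays correlated from -0.08 to 0.25, so the numbers were not taken as pairs. Same-numbered control and HF arrays, and same-numbered LPS+HF and LPS arrays, also shared a slide column. Calls over all 22460 genes also moved with the setting, so member counts are to be read beside them. In LPS minus control they were 2487 as reported, 1059 with normexp, 66 with only the arrays compared and 6290 after the spatial correction. For HF minus control these were 200, 8, 0 and 2191, in the same order. For LPS+HF minus LPS they were 1379, 251, 7390 and 6301, and for LPS+HF minus HF 287, 89, 323 and 1082. The interaction had 12, with 0 under normexp and 751 after the spatial correction. Leaving out single arrays moved these counts further still.

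Values that changed sign all belonged to results that had not passed. With median scaling Cxcl14 was 0.26 in LPS minus control, and in HF minus control Cxcl2 was 0.063, Cxcl14 0.26 and Cxcl16 0.23. Cxcl2 was 0.033 in HF minus control with quantile normalization. With normexp Cxcl9 was 0.059 in HF minus control and Cxcl14 0.028 in the interaction. After the spatial correction Cxcl9 was 0.061 and Cxcl16 0.027 in HF minus control, and Cxcl10 0.0094 in the interaction. Without control replicate 1 and HF replicate 1 together Cxcl16 was 0.19 in HF minus control and -0.063 in the interaction. By its other probe Cxcl9 was -0.19 in LPS+HF minus HF. Leaving out each array gave, in LPS minus control, Cxcl9 -0.40 to 3.01 and Cxcl14 -0.31 to 0.14. In HF minus control it gave Cxcl9 -3.40 to 0.013, Cxcl14 -0.35 to 0.093 and Cxcl16 -0.42 to 0.11. It gave Cxcl16 -0.0036 to 0.25 in LPS+HF minus LPS, and in the interaction Cxcl9 -1.84 to 1.58 and Cxcl10 -0.14 to 0.062. Signal over background limits Cxcl2 without LPS, Cxcl9 outside LPS, and Cxcl1, Cxcl3 and Cxcl5 on all 8 arrays.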
